A study of Sus scrofa with 10 samples.

Results

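The genes described are 64 cell cycle genes of the swine aortic valve leaflet: cyclins, cyclin-dependent kinases (CDKs) and their partners, CDC genes, replication factors (MCM and ORC proteins, PCNA), mitotic kinases and checkpoint genes (PLK, AURK, BUB3, MAD2L1), TOP2A, CKS subunits, centromere proteins (CENP) and kinesins (KIF). They were picked by a rule on gene symbols, from the 6765 genes that had at least 1 probe set with a single symbol in the array annotation. The rule held no measured value, but it was set with earlier results of these data known. The symbols also took in some binding partners, regulators and relatives of such proteins, for example CDK2AP1, CDK5RAP3, KIFAP3 and CDC37L1. Where a gene had several probe sets, as 15 of the 64 did, its brightest probe set, by the mean over all arrays, was used.

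Aortic valve leaflets of female swine were profiled from biotin-labelled total RNA on the Affymetrix Porcine Genome array, which reads each transcript with a group of short probes called a probe set. The 10 arrays comprised 3 from juvenile wild-type (WT) Rapacz Wisconsin Miniature Swine aged 3 months, given in the labels as wild type (RFH -/-), 3 from juvenile Rapacz Familial Hypercholesterolemic (RFH) swine aged 3 months, and 4 from adult RFH swine aged 2 years. RFH swine have inherited high blood cholesterol. All animals ate standard chow, and their leaflets were put in RNAlater no later than an hour after death. The labels do not say whether each array came from a separate animal, so the p-values below measure only the spread between these arrays. No adult WT swine were among the arrays, so age and the course of hypercholesterolemia cannot be told apart.

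Cell division runs through a fixed order of phases. Cyclins bind and switch on CDKs, MCM and ORC proteins prepare DNA for copying in S phase, and cyclin B with CDK1 drives the cell into mitosis, where Aurora and Polo kinases, centromere proteins and kinesins build the spindle and part the chromosomes. Mitosis ends when CDC20 brings cyclin B to the anaphase-promoting complex for destruction. Transcripts such as CCNB1, CDC20, CENPF and TOP2A peak in late S, G2 and M phase and are low in resting cells. The interstitial and endothelial cells of a mature valve leaflet divide rarely.

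Values are log2 expression values, so a difference of 1 is a doubling, and the medians of the 10 arrays lay between 6.96 and 7.03. Of the 64 genes, 39 lay above and 13 below every array's median on all 10 arrays, and no detection calls were used. The 7 interstitial cell markers, among them vimentin and decorin, averaged 12.05 ± 0.04 (SD, n = 3) in juvenile WT, 11.91 ± 0.04 (n = 3) in juvenile RFH and 11.49 ± 0.18 (n = 4) in adult RFH leaflets, and 3 of the 7 fell in the adults (COL3A1, PDGFRB and POSTN). Juvenile RFH replicate 2 stood apart: the mean of 7 cardiac muscle transcripts was 9.52 there against 5.10 to 5.79 on the other 9 arrays. Macrophage markers averaged 9.54 to 9.68 in juvenile WT, 9.94 to 9.96 in juvenile RFH and 10.46 to 11.27 in adult RFH leaflets, and 4 of the 6 rose in the adults. From juvenile to adult RFH, 4 adipocyte markers averaged 5.29 to 5.38 and then 6.09 to 7.15 (FABP4 and LPL rose), and 3 erythroid markers 7.56 to 8.48 and then 6.28 to 7.24 (AHSP and ALAS2 fell). The 6 endothelial markers averaged 8.83 to 9.15 and then 8.81 to 9.72 (VWF rose, ERG fell), the 4 smooth muscle markers 10.05 to 10.46 and then 9.39 to 10.33 (ACTA2 fell), and of 6 lymphocyte markers none was called. The spiked poly-A labelling controls were also higher on the adult than on the juvenile RFH arrays, by 0.80 (7.12 ± 0.16, SD, n = 4, against 6.32 ± 0.02, n = 3; exact two-sided permutation p = 0.0286, the smallest that 4 against 3 arrays can give). Their part in the results below was not tested.

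The first comparison set adult RFH against juvenile RFH leaflets. A few mitotic genes were lower in the adults: cyclin B1 (CCNB1) fell 2.34-fold, CENPF 1.75-fold and CDC20 1.61-fold. The CENPF call was lost in 9 of the 10 fits that each left out 1 array, and the CDC20 call without juvenile RFH replicate 2. CKS2, a small subunit that docks on CDKs, rose 3.30-fold, and the stress-responsive Polo kinases PLK3 and PLK2 rose 2.39-fold and 1.80-fold. Of the 64 genes, 5 rose, 7 fell and 52 did not pass an adjusted p of 0.05 in limma. This is 18.8% of the cell cycle genes, against 19.3% of all 6765 genes, so the share called was near the background. Of the 64 genes, 3 were called and changed at least 2-fold, against 317 of all 6765 genes, or 4.69%. This share too was near the background. By direction, 7.81% rose against 11.4% of all genes and 10.9% fell against 7.85%. The median change of the 64 genes was -0.11, with 39 of 64 negative, against a median of 0.02 over all genes, with 3206 of 6765 negative. The adult and juvenile RFH arrays did not overlap in 21 of the 64, or 32.8%, against 29.9% of all genes: 7 higher in adults (background 16.6%) and 14 lower (background 13.3%).

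Without juvenile RFH replicate 2, the array high in cardiac muscle transcripts, 2 of the 64 genes fell in place of 7. The count of falls was 4 without adult RFH replicate 1, 3 without adult RFH replicate 2, and 4 without any 1 of the 3 juvenile WT arrays, which enter only through the shared estimate of the spread. The count of rises was 3 without juvenile RFH replicate 1, a fit that called 2243 probe sets in place of 4025. With the cardiac muscle marker level as a covariate, an alternative added after seeing the data, 3 genes rose and 1 fell. That level was the mean of MYH7, TNNT2, MYL2 and ACTC1. Since cardiac muscle transcripts were high on juvenile RFH replicate 2 alone, this fit comes close to leaving out that array. It is not a separate check: the CCNB1 change was -0.85 with the covariate and -0.86 without that array. In whole tissue, fewer cells of a type and less RNA per cell cannot be told apart.

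**Figure D1:**
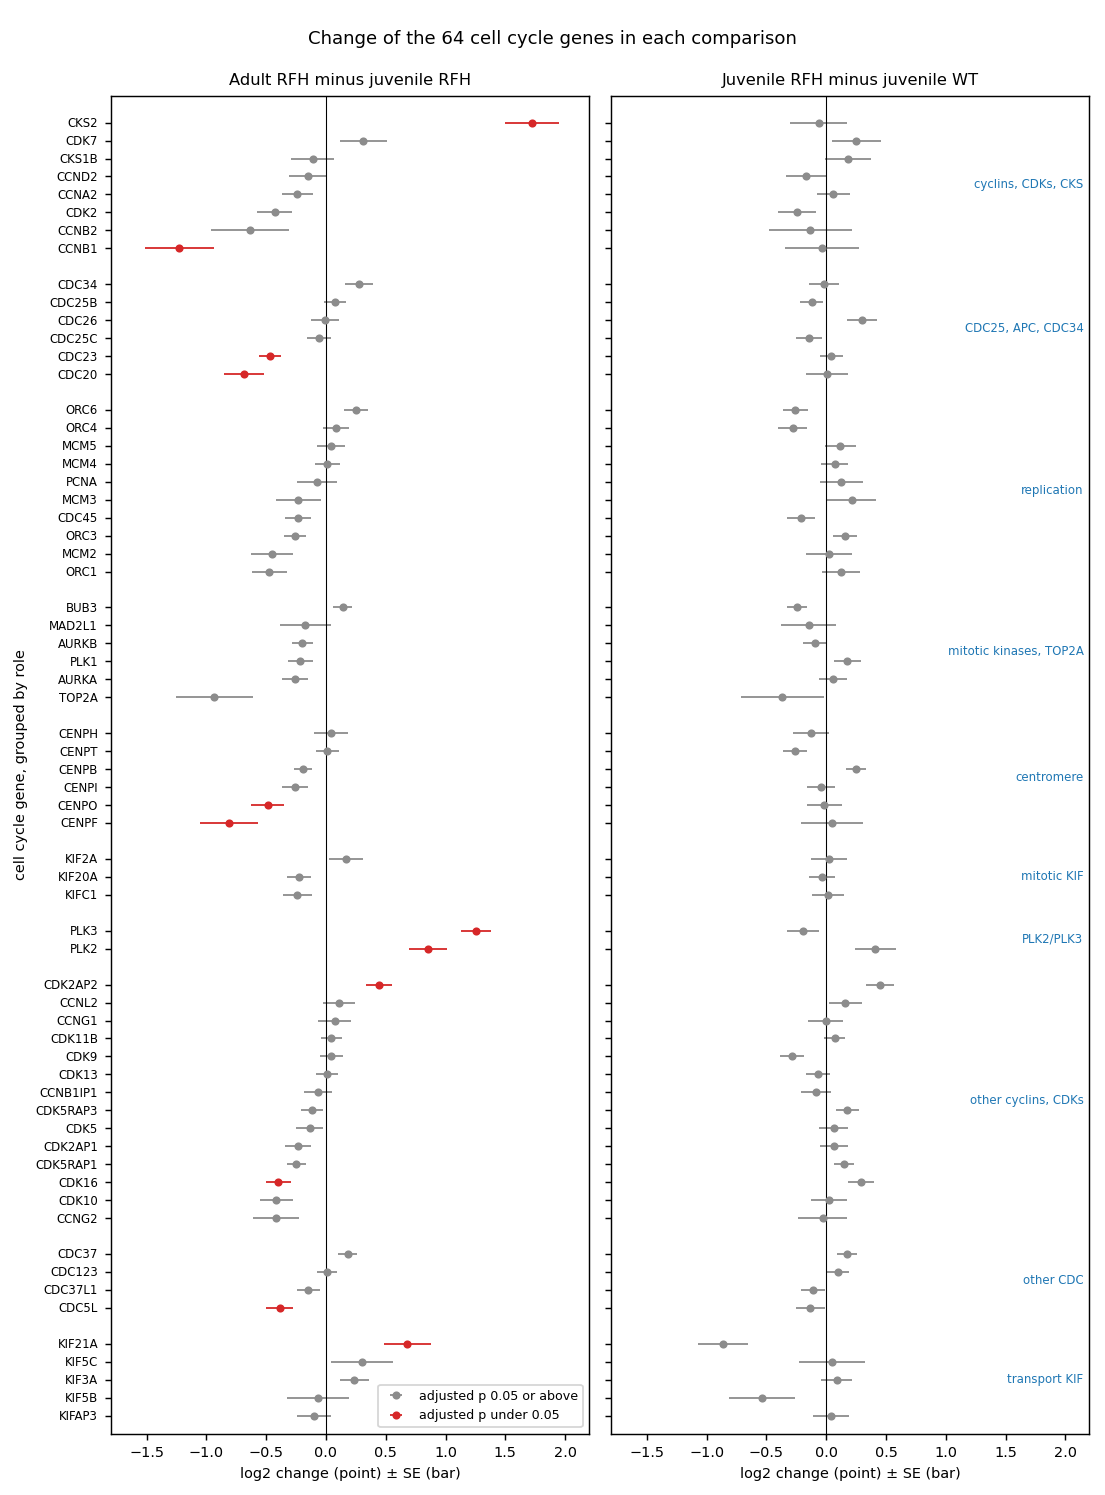
Log2 change (points) with its standard error (bars) of each of the 64 cell cycle genes, grouped by role, for adult minus juvenile RFH (left) and juvenile RFH minus juvenile WT (right). On the left, CKS2 lies farthest right at 1.72 and CCNB1 farthest left at -1.23, and 12 genes in red had an adjusted p under 0.05; on the right there are none.

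Among the 8 cyclins, kinases and CKS subunits with a direct part in the cycle, 1 rose, 1 fell and 6 were not called, with a median change of -0.20. The share called was 25%, against 19.3% of all genes. Cyclin B1, which activates CDK1 at the entry to mitosis, measured 7.72, 7.0 and 6.79 in juvenile WT, 6.95, 7.86 and 6.59 in juvenile RFH, and 5.79, 6.10, 5.72 and 6.01 in adult RFH leaflets. All 4 adult arrays lay below all 6 juvenile arrays, and WT replicate 1 and RFH replicate 2 were the highest of their groups. The change from juvenile to adult RFH was -1.23 ± 0.29 (SE; adjusted p = 0.0167), and it was -0.86 (adjusted p = 0.0435) without juvenile RFH replicate 2. With the cardiac muscle covariate it was -0.85 (adjusted p = 0.0594), which ends the call.

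Cyclin B2 (CCNB2), the Golgi-associated partner of CDK1, had the same 2 high juvenile arrays, at 6.26 in WT and 6.24 in RFH, with the other 4 juvenile arrays between 5.03 and 5.36. Its adult values of 4.89, 4.88, 4.41 and 5.21 lay below all 3 WT arrays and overlapped juvenile RFH, and the change of -0.63 ± 0.32 did not pass (adjusted p = 0.212). Without juvenile RFH replicate 2 the CCNB2 change was -0.26 (adjusted p = 0.611). Cyclin A2 (CCNA2), needed in S and G2 phase, read between 3.42 and 4.02 on all arrays, low on this array's scale, with a change of -0.24 (adjusted p = 0.232). CDK2, the partner of cyclins E and A, measured 7.77, 8.12 and 7.69 in juvenile RFH and 7.68, 7.34, 7.15 and 7.55 in adult RFH leaflets. Its adult values lay just below the juvenile ones, with a change of -0.43 ± 0.15 (adjusted p = 0.0706) that passed without adult RFH replicate 1 (-0.51, adjusted p = 0.0426). The other probe sets of CDK2 changed by 0.06 and 0.00, so its probe sets disagreed. Cyclin D2 (CCND2), the growth factor-responsive G1 cyclin, was at 10.84, 10.88 and 10.77 in juvenile RFH. Adult RFH replicates 1 and 2 were below this, at 10.47 and 10.33, and replicates 3 and 4 above it, at 10.97 and 10.95.

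The pair of CKS genes did not move together. CKS2 measured 9.67, 9.19 and 8.94 in juvenile WT and 9.09, 9.64 and 8.88 in juvenile RFH, with the same 2 arrays highest as for cyclin B1. In adult RFH it was at 11.23, 11.10, 10.65 and 10.73, above every juvenile array. The change of 1.72 ± 0.22 (adjusted p = 0.000891) was between 1.56 and 1.94 when any 1 array was left out. CKS1B, its close paralog, which also serves in the destruction of the inhibitor p27, was at 10.40, 10.76 and 10.53 in juvenile RFH and at 10.85, 10.60, 9.94 and 10.42 in adult RFH. The CKS1B groups overlapped, and the adult values ran from below the juvenile range to above it. CDK7, the CDK-activating kinase, split the adults in a like way: 8.31 and 8.45 in replicates 1 and 2, 7.70 and 7.70 in replicates 3 and 4, against 7.67 to 7.80 in juvenile RFH.

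**Figure D2:**
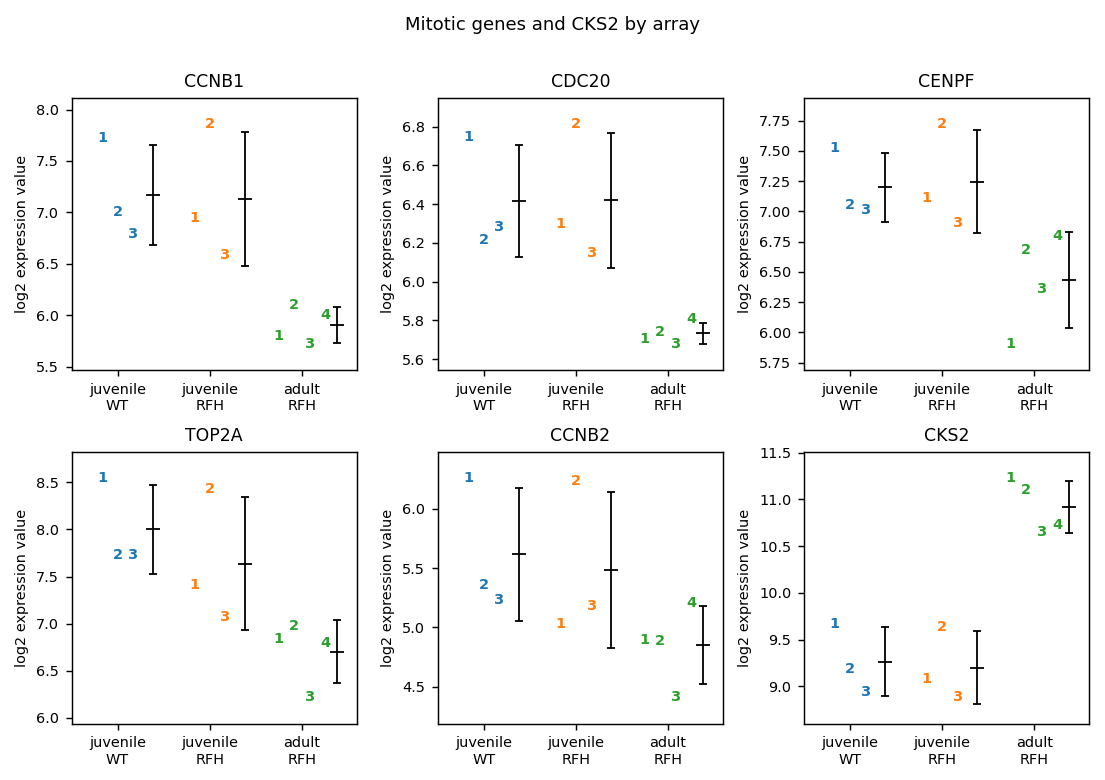
Log2 expression values of 5 mitotic genes and CKS2 on each array; numerals are replicate numbers, and the black bar gives the group mean ± SD (n = 3, 3 and 4). For CCNB1, CDC20, CENPF and TOP2A all adult arrays lie below all juvenile arrays, for CKS2 above, and replicate 1 of juvenile WT and replicate 2 of juvenile RFH are highest in their groups in every panel.

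Of the 6 genes around CDC25, the anaphase-promoting complex and the ubiquitin-conjugating enzyme CDC34, 2 fell and none rose. With so few genes, this is 33.3% called, against 19.3% of all genes. CDC20, the activator of the complex in mitosis, measured 6.30, 6.81 and 6.15 in juvenile RFH and 5.71, 5.74, 5.68 and 5.80 in adult RFH leaflets. The 4 adult values lay within 0.13 of each other and below all 6 juvenile arrays. The change was -0.69 ± 0.17 (adjusted p = 0.0193), and the call was lost without juvenile RFH replicate 2 (-0.49, adjusted p = 0.0586). CDC23, a core subunit of the same complex, was at 7.84, 7.96 and 8.0 in juvenile RFH and 7.35, 7.46, 7.43 and 7.63 in adult RFH. Here the juvenile WT arrays, at 7.88, 7.93 and 7.86, were level with juvenile RFH, and replicate 2 did not stand out. CDC23 fell by 0.47 ± 0.09 (adjusted p = 0.00718), a call kept without any 1 array and with the cardiac muscle covariate. CDC34 was at 9.38, 9.12, 8.96 and 8.94 in adults against 8.75 to 8.96 in juvenile RFH (0.28, adjusted p = 0.131). CDC25B and CDC25C, phosphatases that switch on CDKs, had overlapping groups, with CDC25B at 8.88 to 8.95 in juvenile RFH and 8.82 to 9.10 in the adults. Of the 5 measured subunits and activators of the complex without a CDC symbol, none was called, against 19.3% of all genes. The median change of the 5 was -0.16.

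No gene of the 10 that license or copy DNA was called in the adults. Of all genes 19.3% were called, and 10 genes are few. The changes of the 10 ran from -0.47 to 0.25 with a median of -0.15. ORC1, the largest subunit of the origin recognition complex, was at 5.32, 5.72 and 5.11 in juvenile RFH and 4.97, 4.85, 4.71 and 5.10 in adult RFH. Its groups just failed to overlap, and the change of -0.47 ± 0.15 was short of the threshold (adjusted p = 0.0522). It passed without juvenile RFH replicate 3 (-0.61, adjusted p = 0.0358) or adult RFH replicate 4 (-0.54, adjusted p = 0.0392), and was -0.30 (adjusted p = 0.171) without juvenile RFH replicate 2. MCM2, a subunit of the replicative helicase, was at 7.47, 7.88 and 6.98 in juvenile RFH and at 7.06, 6.89, 7.04 and 6.97 in adult RFH, where 2 arrays lay below all juvenile RFH arrays (-0.45 ± 0.18, adjusted p = 0.11). Without juvenile RFH replicate 2 the MCM2 change was -0.23 (adjusted p = 0.351), and without replicate 3 it was -0.68 and passed (adjusted p = 0.0205). The dimmer MCM2 probe sets changed by -0.06 (adjusted p = 0.696) and -0.12 (adjusted p = 0.337).

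PCNA, the sliding clamp of the polymerases, was at 9.47, 9.87 and 9.66 in juvenile RFH and at 9.83, 9.90, 9.18 and 9.46 in adult RFH. Adult replicates 1 and 2 were at the top of the juvenile range and replicate 3 below it. MCM3 was at 6.90, 7.76 and 7.08 in juvenile RFH, where replicate 2 alone was high, and at 6.81 to 7.23 in the adults. MCM4 and MCM5 each stayed within a range of 0.53 over all 10 arrays. CDC45, which travels with the helicase, was at 7.54 to 7.60 in juvenile RFH and 7.09 to 7.56 in adult RFH (-0.24, adjusted p = 0.166). ORC6 was at 8.25, 8.35 and 8.47 in juvenile RFH and 8.46 to 8.77 in the adults (0.25, adjusted p = 0.103).

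None of the 6 mitotic kinases, checkpoint genes and TOP2A was called, against 19.3% of all genes. Of the 6 changes 5 were negative, against 47.4% of all genes, and the median was -0.21. With so few genes, these counts say little. TOP2A, the topoisomerase that untangles sister chromosomes, measured 8.55, 7.72 and 7.73 in juvenile WT, 7.41, 8.43 and 7.07 in juvenile RFH, and 6.83, 6.97, 6.21 and 6.79 in adult RFH leaflets. All 4 adults lay below all 6 juveniles, but the juvenile RFH arrays differed among themselves by 1.36. The change of -0.93 ± 0.32 did not pass (adjusted p = 0.0727), and without juvenile RFH replicate 2 it was -0.54 (adjusted p = 0.231). Aurora B (AURKB), the kinase of the chromosomal passenger complex, was at 6.58 to 6.61 on the adult arrays, below the juvenile range of 6.68 to 6.97 (-0.20, adjusted p = 0.156). Aurora A (AURKA), the centrosomal Aurora, changed by -0.26 (adjusted p = 0.129) and passed without adult RFH replicate 3 (-0.33, adjusted p = 0.0379). Its dimmer probe set changed by -0.38, at the threshold (adjusted p = 0.05). PLK1, the mitotic Polo kinase, changed by -0.21 (adjusted p = 0.194). BUB3 of the spindle checkpoint was at 11.06, 10.93 and 11.12 in juvenile RFH and 11.15 to 11.19 in adults (0.14, adjusted p = 0.259). MAD2L1, its partner in the checkpoint, ran from 8.29 to 9.22 within the adult group alone.

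Of the 6 centromere proteins, 2 fell and none rose, with a median of -0.23. With so few genes, this is 33.3% called, against 19.3% of all genes. CENPF, a large kinetochore protein that accumulates in G2, was at 7.11, 7.72 and 6.91 in juvenile RFH and at 5.91, 6.68, 6.36 and 6.80 in adult RFH. Adult replicate 4 lay only 0.11 below the lowest juvenile RFH array. The change was -0.81 ± 0.24 (adjusted p = 0.046), and of the 10 fits that each left out 1 array, 9 lost the call (adjusted p 0.0507 to 0.155), all but the one without adult RFH replicate 4. CENPO, of the inner kinetochore, was at 6.03, 6.41 and 6.31 in juvenile RFH and 5.56, 5.58, 5.97 and 5.95 in adult RFH. Its fall of 0.49 ± 0.14 (adjusted p = 0.0348) was lost in 7 of those 10 fits (adjusted p 0.051 to 0.118): without juvenile RFH replicate 2 or 3, adult RFH replicate 1 or 2, or any 1 juvenile WT array. CENPI (-0.26) and CENPB (-0.19) were not called, and CENPH and CENPT had overlapping groups, CENPT at a low level of 3.89 to 4.37 on all 10 arrays. The 3 mitotic kinesins were not called either, where 19.3% of all genes were, and 3 genes are few. KIF20A of the spindle midzone changed by -0.22, the minus-end motor KIFC1 by -0.24, and the microtubule depolymeriser KIF2A by 0.17.

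PLK2 and PLK3, Polo kinases induced by growth factors and cell stress and not needed to build the spindle, both rose. PLK3 measured 6.79, 6.76 and 6.64 in juvenile WT, 6.65, 6.52 and 6.45 in juvenile RFH and 7.59, 7.60, 8.04 and 7.95 in adult RFH leaflets. The adults lay above all 6 juveniles by a gap of 0.81, and the change was 1.26 ± 0.12 (adjusted p = 0.000182). A second, dimmer PLK3 probe set, with a mean level of 5.19, changed by 0.02 (adjusted p = 0.939), so the rise rests on 1 of its 2 probe sets. PLK2 measured 7.72, 7.58 and 7.70 in juvenile WT, 8.04, 8.05 and 8.14 in juvenile RFH and 8.51, 8.79, 9.21 and 9.21 in adult RFH. The 3 PLK2 groups did not overlap. The adult rise was 0.85 ± 0.16 (adjusted p = 0.00599). Both calls were kept without any 1 array and with the cardiac muscle covariate.

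**Figure D3:**
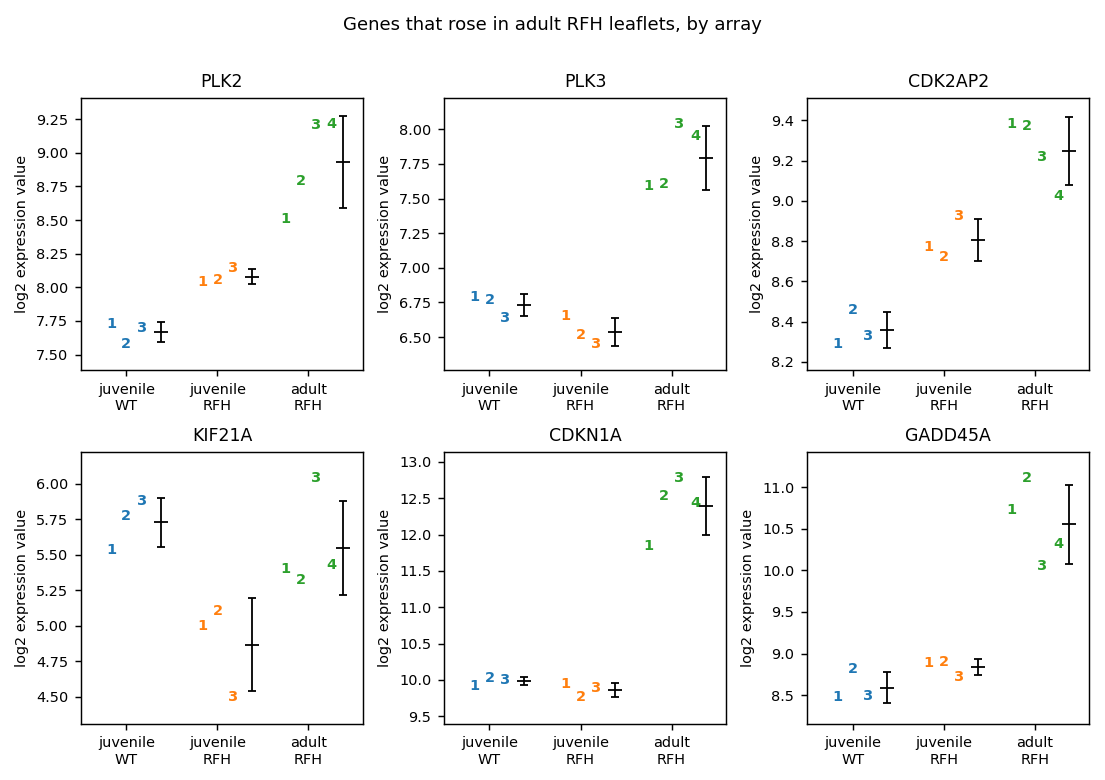
Log2 expression values by array of 4 cell cycle genes that rose in adult RFH leaflets (PLK2, PLK3, CDK2AP2, KIF21A) with the CDK inhibitor CDKN1A and GADD45A; numerals are replicate numbers, and black bars give the mean ± SD (n = 3, 3 and 4). Adults lie above both juvenile groups in every panel but that of KIF21A, where they overlap juvenile WT.

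The remaining genes carry cell cycle names but mostly act elsewhere. CDK2AP2, a partner protein related to CDK2AP1, was at 8.29, 8.46 and 8.33 in juvenile WT, 8.77, 8.72 and 8.92 in juvenile RFH and 9.38, 9.37, 9.22 and 9.02 in adult RFH. Its 3 groups were stepped without overlap, and the adult rise was 0.44 ± 0.11 (adjusted p = 0.0193). That call was lost without juvenile RFH replicate 1 (adjusted p = 0.0696) or 2 (adjusted p = 0.0681) and with the cardiac muscle covariate (adjusted p = 0.0704). CDK16, a kinase of vesicle transport and neurite outgrowth, fell by 0.40 ± 0.10 (adjusted p = 0.0245), from 8.94, 9.18 and 8.98 to 8.52, 8.52, 8.79 and 8.72. Its second probe set changed by -0.47 (adjusted p = 0.00487) and its dimmest by -0.24 (adjusted p = 0.139). The CDK16 call was lost without juvenile RFH replicate 2 or 3 or adult RFH replicate 1 or 2 (adjusted p 0.0523 to 0.0914).

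CDC5L, a splicing factor, was at 10.46, 10.87 and 10.89 in juvenile RFH and at 10.33 to 10.38 in the adults. It fell by 0.39 ± 0.11 (adjusted p = 0.0419), a call lost in 9 of the 10 fits that left out 1 array (adjusted p 0.056 to 0.158) and kept only without juvenile RFH replicate 1, its low juvenile array. The dimmer CDC5L probe set changed by -0.19 (adjusted p = 0.263), and the call was lost when its probe sets were averaged (-0.29, adjusted p = 0.071). CDC37, the chaperone that loads kinases onto HSP90, was above both juvenile groups on all 4 adult arrays, at 9.72 to 9.80 against 9.33 to 9.61, yet the change of 0.18 was not called (adjusted p = 0.137). CDK10 was lower on adult replicates 1, 2 and 4, at 7.80, 7.73 and 7.99, than on replicate 3 at 8.38, which lay within the juvenile range (-0.41, adjusted p = 0.0685). Without adult RFH replicate 3 the CDK10 change was -0.55 and passed (adjusted p = 0.00455). Cyclin G2 (CCNG2), found in cells leaving the cycle, changed by -0.42 (adjusted p = 0.16). Cyclin G1 (CCNG1), a p53 target, was at 12.20 to 12.67 in juvenile RFH and 12.37 to 12.76 in the adults. CDK2AP1, which binds and restrains CDK2, was at 11.46 to 11.61 in juvenile RFH and 11.14 to 11.54 in the adults.

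Of the 5 transport kinesins and their adaptor, 1 was called, or 20%, against 19.3% of all genes. KIF21A, a kinesin best known from neurons, was at 5.54, 5.77 and 5.88 in juvenile WT, 5.0, 5.10 and 4.50 in juvenile RFH and 5.40, 5.32, 6.04 and 5.43 in adult RFH. Juvenile RFH was the low group, and the adults overlapped juvenile WT. The adult rise of 0.68 ± 0.20 (adjusted p = 0.0375) was lost in 6 of the 10 fits that left out 1 array (adjusted p 0.0501 to 0.15): without juvenile RFH replicate 1 or 3, adult RFH replicate 1, or any 1 juvenile WT array. KIF3A, a motor of cilia, changed by 0.24 (adjusted p = 0.203), while 1 of its 3 other probe sets changed by 0.62 (adjusted p = 0.00975). KIF5C spread widely in adults, from 6.29 to 7.67.

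The second comparison set juvenile RFH against juvenile WT leaflets. None of the 64 cell cycle genes was called by limma, and across all genes only 9 were, or 0.133% (0.0887% higher and 0.0443% lower in RFH). The 64 changes ran from -0.86 to 0.45 with a median of 0.02, against 0.07 over all genes. At an unadjusted p under 0.05 there were 11 of the 64 (5 higher, 6 lower in RFH), and 1019 of 6765 genes. The groups did not overlap in 8 genes that were higher and 9 that were lower in RFH, 17 of the 64, against 35.8% of all genes (26.3% higher and 9.53% lower). Since both comparisons use the 3 juvenile RFH arrays, a high or low value there enters them with opposite signs.

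The largest positive difference was that of CDK2AP2 (0.45 ± 0.12, adjusted p = 0.158), followed by PLK2 (0.41 ± 0.17, adjusted p = 0.35). In both, the adults continued in the same direction. CDC26, a small subunit of the anaphase-promoting complex, was at 9.41, 9.32 and 9.53 in juvenile RFH against 9.19, 9.11 and 9.06 in WT (0.30, adjusted p = 0.35). CDK16 was higher in juvenile RFH by 0.29 (adjusted p = 0.313). The centromere binding protein CENPB was higher by 0.25 (adjusted p = 0.247), with adult values of 8.74 to 8.85 that lay back near the WT range of 8.67 to 8.76.

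The largest negative difference was that of KIF21A (-0.86 ± 0.21, adjusted p = 0.142), followed by that of KIF5B (-0.54 ± 0.28, adjusted p = 0.46). KIF5B, another transport kinesin, was at 8.79, 7.91 and 8.49 in juvenile RFH against 8.98, 8.95 and 8.88 in WT. CDK9, the transcription elongation kinase, was at 9.20, 8.95 and 9.24 in juvenile RFH against 9.33, 9.43 and 9.51 in WT (-0.29, adjusted p = 0.27). BUB3 differed by -0.24 (adjusted p = 0.273), CENPT by -0.26 (adjusted p = 0.329), ORC6 by -0.26 (adjusted p = 0.34) and ORC4 by -0.28 (adjusted p = 0.364). The ORC4 groups overlapped. The transcripts of the mitotic peak did not separate the 2 groups. For CCNB1, CDC20 and CENPF the range of the 3 RFH values enclosed that of WT. TOP2A differed by -0.37 (adjusted p = 0.723), with overlapping ranges. With only the juvenile arrays in the fit, CDK2AP2, PLK2 and KIF21A passed (adjusted p 0.0416, 0.0382 and 0.0404), and with array weights CDK2AP2 and KIF21A did.

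The juvenile arrays also differed among themselves. In 23 of the 64 cell cycle genes, or 35.9%, juvenile WT replicate 1 and juvenile RFH replicate 2 were both the highest of their group, against 11.1% of all 6765 genes. This pattern was picked out after the values were seen and is given as a description. It held in 6 of the 8 direct cyclins, kinases and CKS subunits, in 4 of the 6 mitotic kinases and checkpoint genes, in 4 of the 6 centromere proteins and in 0 of the 5 transport kinesins. It held too in 14 of 21 other mitosis genes outside the group of 64, such as BIRC5, NUSAP1 and UBE2C. The mean of those 21 genes was 8.19 on WT replicate 1 and 8.19 on RFH replicate 2, and 7.79 to 7.84 on the other 4 juvenile arrays. Cardiac muscle transcripts were high on RFH replicate 2 but not on WT replicate 1, where their mean was 5.12. All 4 adult arrays lay below all 6 juveniles in 10 of the 64 genes, or 15.6%, against 9.06% of all genes, and above them in 5, or 7.81%, against 14.4%.

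**Figure D4:**
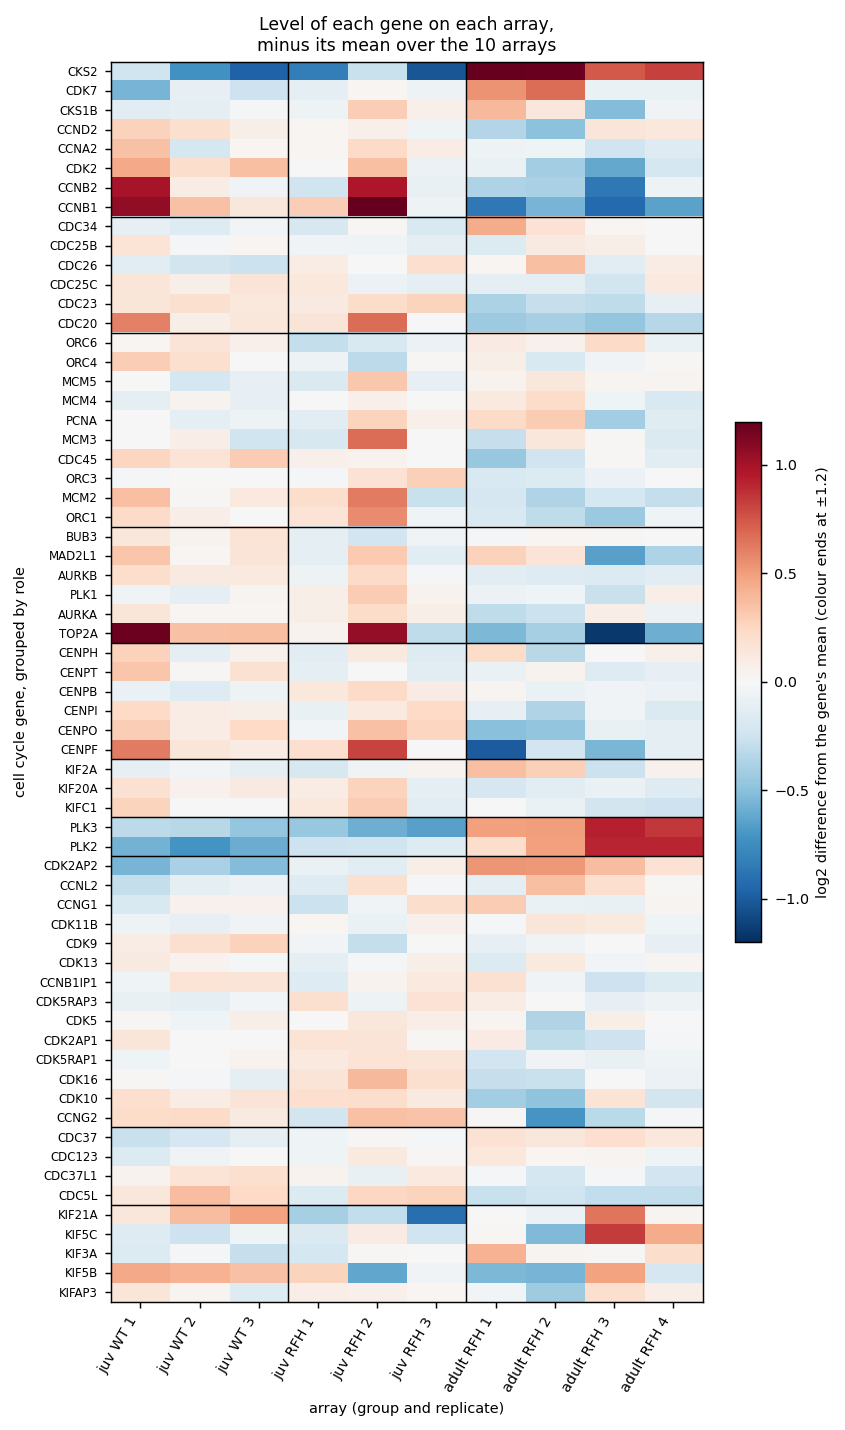
Level of each of the 64 cell cycle genes (rows, grouped by role) on each of the 10 arrays (columns), as the log2 difference from that gene's mean over all arrays. The deepest red cells of CCNB1, CCNB2, CDC20, CENPF and TOP2A lie in juvenile WT replicate 1 and juvenile RFH replicate 2. Red cells of CKS2, PLK2 and PLK3 lie in the 4 adult columns.

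Other genes of the pathway were read from lists made up by function. Beside their counts, 11.4% of all 6765 genes rose and 7.85% fell in the adult comparison. Of 6 measured CDK inhibitors, 2 rose in adult RFH and none fell. CDKN1A (p21), which blocks CDKs after damage or stress, was at 9.92 to 10.03 in juvenile WT, 9.94, 9.76 and 9.89 in juvenile RFH and 11.84, 12.53, 12.78 and 12.44 in adult RFH leaflets. The juvenile groups were level, and every adult was at least 1.81 above them (2.53 ± 0.18, 5.78-fold, adjusted p = 2.13e-05). CDKN2D (p19), an inhibitor of CDK4 and CDK6, rose by 1.03 ± 0.12 (adjusted p = 0.000461). Of 10 checkpoint and DNA damage genes, 3 rose, all of them GADD45 stress genes: GADD45A by 1.71 ± 0.22 (adjusted p = 0.000741), GADD45G by 1.39 ± 0.24 (adjusted p = 0.00381) and GADD45B by 1.11 ± 0.16 (adjusted p = 0.00138). The other 7, which include the checkpoint kinase CHEK1, were not called.

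Of 21 other mitosis genes, 3 fell, none rose and 17 had negative changes, with a median of -0.28. The share called was 14.3%, against 19.3% of all genes. The share negative was 81%, against 47.4% of all genes. PTTG1 (securin), which holds back the parting of sister chromatids until anaphase, fell by 0.69 ± 0.17 (adjusted p = 0.0206). It did not pass once juvenile RFH replicate 2 was left out (adjusted p = 0.0728). The spindle protein NUSAP1 fell by 0.68 ± 0.21 (adjusted p = 0.0472) and the cytokinesis regulator RACGAP1 by 0.57 ± 0.18 (adjusted p = 0.0497). These last calls were lost in 8 and 9 of the 10 fits that left out 1 array (adjusted p 0.0557 to 0.156 and 0.0611 to 0.16). They were kept without juvenile WT replicate 1, and that of NUSAP1 also without adult RFH replicate 4.

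Of 19 other S phase genes, 1 rose and 3 fell, with a median of -0.14. The share called, 21.1%, was near the 19.3% of all genes. The clamp loader subunit RFC5 fell by 0.78 ± 0.11 (adjusted p = 0.00161) and the maintenance DNA methyltransferase DNMT1 by 0.49 ± 0.09 (adjusted p = 0.00448). The DNMT1 call was lost when its probe sets were averaged (-0.24). RPA1, a single-strand DNA binding protein, fell by 0.30 ± 0.08 (adjusted p = 0.0351) and the licensing inhibitor GMNN rose by 0.34 ± 0.10 (adjusted p = 0.0423). Leaving out 1 array ended the RPA1 call in 9 of 10 fits (adjusted p 0.0512 to 0.123), all but that without adult RFH replicate 4, and the GMNN call in 8 (adjusted p 0.0541 to 0.14), all but those without adult RFH replicate 3 or juvenile WT replicate 1. The nucleotide reductase subunit RRM2 changed by -0.64 and was not called (adjusted p = 0.184; -0.19, adjusted p = 0.586, without juvenile RFH replicate 2), and the thymidylate synthase TYMS overlapped at 4.58 to 5.20 in juvenile and 4.68 to 4.90 in adult RFH. Of 7 pocket protein and E2F genes, E2F3, which drives S phase genes, rose by 0.45 ± 0.11 (adjusted p = 0.0172), but did not pass without juvenile RFH replicate 1 (adjusted p = 0.0703) or 3 (adjusted p = 0.0615). FOXM1, the transcription factor of the mitotic genes, changed by -0.17 (adjusted p = 0.429). In the comparison of juvenile RFH with juvenile WT no gene of these lists was called.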

How the data were processed

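The authors deposited log2 expression values of 24123 probe sets on 10 arrays, the unit being read from the values. The submitters' processing notes name R 2.15.2. How background was corrected and values were normalized and summarised is not given in the sources used here. The 124 control probe sets were left out, which left 23999, of which 10069 carry 1 gene symbol, 198 several and 13732 none. All 64 gene IDs matched the RefSeq gene table with the same symbol.

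Group means were fitted to all 10 arrays with limma 3.58.1 in R 4.3.3 (lmFit, eBayes without trend; 7 residual and 3.57 prior degrees of freedom). Tests were two-sided, with Benjamini-Hochberg adjustment over 23999 probe sets; rose and fell mean an adjusted p under 0.05. With 3 or 4 arrays a group, their number limits the precision. Tested on simulated data with independent noise, the fit recovered 84 of 100 changes of 1 log2 unit in the adult comparison and 78 of 100 in the juvenile one. It made 11 and 8 false calls. The simulation held no outlying array such as juvenile RFH replicate 2, so these rates need not hold for the real arrays.

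The genes, lists and tests were chosen with earlier results of these data known. The text names every called gene of the 64, a preset list of core cell cycle genes, and others as examples picked after their values were seen; of the other lists it names up to 3 called genes per direction with the smallest p. Equal replicate numbers did not mark pairs: correlations of their deviations ran from -0.16 to 0.19. Promoter motifs were not analysed here.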

Additional observations from a re-analysis of the deposited data

Results flagged for a closer look

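In 3 of the 64 cell cycle genes, 1 adult RFH array stood apart from the other 3, its gap to the nearest being most of the group's range. CDK5 was at 6.33 on replicate 2 against 6.69 to 6.75 on the others, a gap of 0.842 of the range. KIF21A was at 6.04 on replicate 3 against 5.32 to 5.43, a gap of 0.857 of the range. MCM5 was at 7.13 on replicate 2 against 7.02 to 7.03, a gap of 0.843 of the range over a narrow spread. Each gap was above Dixon's critical value for 4 arrays, which chance passes in about 1 in 20 groups, so 3 of 64 is no excess.

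Among the 22 dimmer probe sets of the same genes, which the comparisons above did not use, 2 were called in adult against juvenile RFH leaflets. One of KIF3A changed by 0.62 (limma adjusted p = 0.00975), where the brightest KIF3A probe set was not called. One of CDK16 changed by -0.47 (limma adjusted p = 0.00487), in the direction of the brightest.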

How the results depend on the processing

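The 12 called cell cycle genes kept their direction under every alternative that gave them a value, and CKS2, PLK3, PLK2, CDC23 and CCNB1 kept their calls without any 1 array. Leaving out each array in turn gave 3 to 5 genes higher and 2 to 7 lower in adult RFH, 2243 to 4965 probe sets called and a median change from -0.15 to -0.09. For juvenile RFH against WT it gave 0 to 0 genes higher, 0 to 0 lower, 2 to 71 probe sets and a median from -0.06 to 0.06. As reported, the adult comparison had 5 higher, 7 lower and 4025 probe sets, and the juvenile one 0, 0 and 28. Without probe sets below the median level, 43 of the 64 genes remained and 4 fell. CCNB1, CDC20, CENPF, CENPO and the riser KIF21A were filtered out, and CDK5RAP1 was gained among the falls. The median was -0.067, and the juvenile comparison called 6 probe sets. With only the 2 groups compared, 3 rose, 3 fell and 2308 probe sets were called, and in the juvenile comparison 2 genes were higher, 1 lower and 872 probe sets called. Array weights gave 1 higher, 1 lower and 1171 probe sets there. Raising values below 4 to 4 gave 10 probe sets there. Requiring a change of at least 2-fold left 2 higher, 1 lower and 905 probe sets in adults. The cardiac muscle covariate, added after seeing the data, gave 3 higher and 1 lower in adults (CDC23, CKS2, PLK2 and PLK3) and 8 probe sets in juveniles. A replicate block gave 4 higher and 6 lower in adults, with CDC5L, CDK16 and KIF21A lost and ORC1 gained, and 17 probe sets in juveniles. In adults, quantile normalization lost CENPF and gained CDK5RAP1. Centring each array on its median lost CDC5L and CENPF, and cyclic loess lost CENPF and CENPO. Averaging a gene's probe sets lost CDC5L and gained AURKA. Array weights lost CDC20, CDC5L and CENPF in adults and gained CDK10. Raising values below 4 to 4 lost CDC5L, CENPF, CENPO and KIF21A in adults and gained CDC37, CDK5RAP1 and CENPB. The causes were not tested. Probe sets at low levels, such as those of CCNA2 and CENPT, may understate changes, but no background level was estimated here.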
